A study of Mus musculus with 6 samples.

Results

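The genes described here are 10 genes of steroid hormone synthesis and of Leydig cells, measured in cultured Sertoli cells, in chemically induced Sertoli-like cells and in embryonic fibroblasts. Star delivers cholesterol, Cyp11a1 with Fdx1 and Fdxr cleaves its side chain, Hsd3b1, Cyp17a1, Akr1cl and Hsd11b1 belong to enzymes that act later, Insl3 is a Leydig cell hormone and Mrap is a partner of a melanocortin receptor. They were picked by gene symbol, and all 10 were present among the 20007 gene identifiers of the count tables.

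RNA was sequenced on the BGISEQ-500 platform from 6 libraries of KM mice, 2 in each of 3 groups. CiSCs were passaged embryonic fibroblasts, called induced Sertoli cells in the labels, that had received small molecules (left unnamed there) 24 h after seeding on 6-well plates. MSCs were Sertoli cells prepared from testes of mice at postnatal day 60 and plated in culture. MEFs were plated fibroblasts of embryos labelled 13.5 days post coitum, and 12.5 days is also given in the growth protocol. The same embryo ages are given for the fibroblasts of CiSCs. Passaged fibroblasts without compounds were not analysed here, so passage and compounds cannot be told apart in CiSCs against MEFs, and MSCs differ from both other groups in age and tissue of origin too. The series was set up to ask whether CiSCs resemble Sertoli cells in their expression profile.

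Steroid hormones are made from cholesterol. The protein StAR brings cholesterol into mitochondria, where the side-chain cleavage enzyme CYP11A1 turns it into pregnenolone with electrons passed on by ferredoxin reductase and ferredoxin, the products of Fdxr and Fdx1. Hydroxysteroid dehydrogenases then form progesterone, and CYP17A1 leads on to androgens. In the testis this pathway is known from Leydig cells, which lie between the seminiferous tubules, answer to luteinizing hormone through its receptor Lhcgr, finish testosterone with Hsd17b3 and secrete INSL3. Sertoli cells are the nurse cells inside the tubules.

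Each library held 19294700 to 20418600 expected counts (reads assigned to genes, with shared reads split), so that 1 read was worth 0.0468 to 0.0543 CPM (the count divided by the scaled size of its library, times 1000000). Levels are CPM per library or as mean ± SD over 2 libraries, and log2 fold changes carry their standard error. A gene was called at an adjusted p under 0.05 (edgeR's quasi-likelihood test, Benjamini-Hochberg adjustment across the 15272 genes tested). Of the 15272, 42.8% were called in CiSCs against MSCs, 42.5% in MSCs against MEFs and 40.9% in CiSCs against MEFs. Counts of calls in gene lists are to be read beside these shares. Nothing in the labels ties the 2 libraries within a group to separate cultures or animals, so p-values measure the spread between libraries, which may be technical. All 14 Sertoli cell markers had reads in MSCs. Of the 12 tested, 11 were lower and none higher in CiSCs against MSCs (median log2 fold change -3.91), 11 were higher and none lower in MSCs against MEFs (6.88), and 4 were higher and 1 lower in CiSCs against MEFs (1.19). Of the 14, 6 (Cldn11, Dmrt1, Amh, Fshr, Aard and Rhox5) had no more than 3 reads over MEFs, and 3 (Dmrt1, Fshr and Aard) no more than 3 over CiSCs. Tested markers with reads almost wholly in MSCs had to differ from the other groups, so their calls carry no weight. The medians include them. The 14 markers summed to 4903 and 4182 CPM in CiSCs, 6506 and 9375 CPM in MSCs, and 218 and 239 CPM in MEFs. Clu alone made up 4734 and 4020.2 CPM in CiSCs, 4852 and 7530 CPM in MSCs, and 5.66 and 5.87 CPM in MEFs. In MSCs Wt1 was at 175 and 225 CPM and Cldn11 at 263 and 373 CPM, but Fshr, the receptor of follicle-stimulating hormone, had 4 reads in each MSCs library and none in the other groups.

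All but 1 of the 10 genes were expressed in MSCs, at 60.3 to 794 CPM per library, and the exception was Cyp17a1, which had 0 and 1 reads. Their summed level was 22.3 and 21.6 CPM in CiSCs, 2433 and 2475 CPM in MSCs, and 18.5 and 21.3 CPM in MEFs. In CiSCs and MEFs most of that sum was Fdx1 and Fdxr, and 6 genes in CiSCs and 4 in MEFs had no more than 3 reads over the group. No library of CiSCs or MEFs came near either MSCs library for any of the 9 genes. In bulk RNA, fewer expressing cells and less RNA per cell cannot be told apart.

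**Figure D1:**
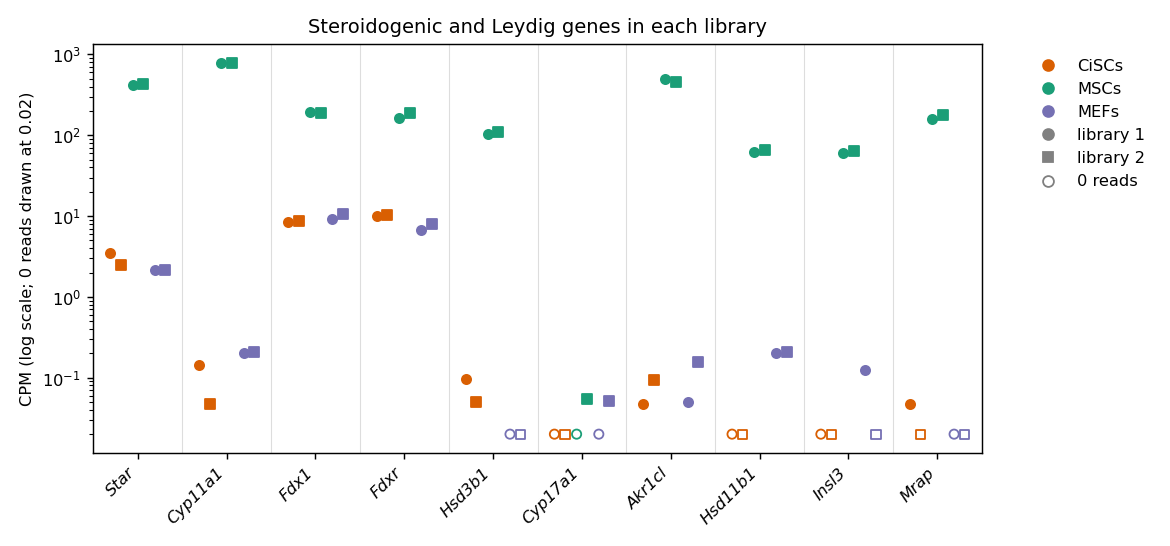
CPM (log scale) of each of the 10 genes in each library, with CiSCs in orange, MSCs in green and MEFs in purple, circles for library 1 and squares for library 2, and open symbols at 0.02 for 0 reads. MSCs lie at 60.3 CPM or above for every gene other than Cyp17a1, and CiSCs lie at 10.3 CPM or below for all 10.

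In CiSCs against MSCs, 42.8% of all tested genes were called, 17.7% as higher and 25.1% as lower, and in MSCs against MEFs 42.5% were called, 22.5% as higher and 20% as lower. All 9 tested genes of the set were called in both comparisons, lower in CiSCs than in MSCs and higher in MSCs than in MEFs. Of these, 6 (Cyp11a1, Hsd3b1, Akr1cl, Hsd11b1, Insl3 and Mrap) passed the filter on low counts only through their reads in MSCs. They had to differ, so neither their count nor the p-values given for them below in these 2 comparisons carry weight. The same holds for other genes, above and below, whose reads lay almost wholly in 1 group. Star, Fdx1 and Fdxr had at least 41 reads in every library.

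Upstream sequence is shown for the 4 genes whose RefSeq promoter window (GRCm38.p6, from 250 bases before to 50 bases after the start of transcription) held a match to CAAGGNC, the core letters bound by NR5A1, a nuclear receptor of steroid-producing cells. Windows were at hand for 7 of the 10 genes, as 8 windows, of which Cyp11a1 had 2. CAAGGNC was found on either strand in 4 of the 7 genes and in 17.8% of 32851 windows of the same length, and the longer CAAGGNCA, which contains it, in 1 of the 7 and in 6.71% of windows. The windows of Cyp11a1, Hsd3b1 and Hsd11b1 held neither. AGATAA, a motif of GATA factors, was in 2 of the 7 genes (Akr1cl and Hsd3b1) and in 11.2% of windows, and TATAAA in none of the 7 and in 13.6% of windows. The 250 bases before the start are given below 5′ to 3′ on the gene's strand, with capitals for matches to CAAGGNC or CAAGGNCA on either strand. Akr1cl (chr1:65032760-65033009, minus strand) had matches at positions -191, which is the longer form, and -141, Insl3 (chr8:71689002-71689251, plus strand) at -137 and -57, Fdx1 (chr9:51963603-51963852, minus strand) at -124 on the opposite strand and Fdxr (chr11:115276970-115277219, minus strand) at -141 on the opposite strand, counted from -1 for the last base before the start. A match of letters does not show that a factor binds there.
Akr1cl: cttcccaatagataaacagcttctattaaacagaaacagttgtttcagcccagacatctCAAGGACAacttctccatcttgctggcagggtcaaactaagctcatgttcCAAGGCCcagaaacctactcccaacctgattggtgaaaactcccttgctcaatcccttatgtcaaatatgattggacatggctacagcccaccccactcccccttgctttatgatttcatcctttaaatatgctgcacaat
Insl3: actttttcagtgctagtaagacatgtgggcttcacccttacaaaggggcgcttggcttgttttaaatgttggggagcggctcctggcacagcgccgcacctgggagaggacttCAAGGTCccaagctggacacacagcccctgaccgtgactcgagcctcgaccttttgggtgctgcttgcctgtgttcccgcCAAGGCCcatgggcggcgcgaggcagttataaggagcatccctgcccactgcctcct
Fdx1: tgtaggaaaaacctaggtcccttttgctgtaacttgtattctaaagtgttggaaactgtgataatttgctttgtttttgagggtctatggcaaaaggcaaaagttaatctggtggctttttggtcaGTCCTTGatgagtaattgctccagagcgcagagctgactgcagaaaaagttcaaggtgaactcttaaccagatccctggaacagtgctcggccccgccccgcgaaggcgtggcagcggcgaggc
Fdxr: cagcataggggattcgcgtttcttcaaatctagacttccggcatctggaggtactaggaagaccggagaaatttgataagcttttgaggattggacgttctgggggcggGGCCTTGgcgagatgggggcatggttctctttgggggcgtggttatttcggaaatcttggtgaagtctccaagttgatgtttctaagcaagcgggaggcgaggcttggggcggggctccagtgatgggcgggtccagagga

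Star, the gene of cholesterol delivery, had 73 and 53 reads (3.48 and 2.48 CPM) in CiSCs, 7961 and 7840 reads (423 and 426 CPM) in MSCs, and 42 and 41 reads (2.12 and 2.13 CPM) in MEFs. Both MSCs libraries were far above the other 4, and both CiSCs libraries lay slightly above both MEFs libraries. Star was 143-fold lower in CiSCs than in MSCs (95% counting interval 119.7 to 171, log2 fold change -7.15 ± 0.21, edgeR adjusted p = 8.2e-06). It was 199.5-fold higher in MSCs than in MEFs (161 to 251, log2 7.64 ± 0.22, edgeR adjusted p = 1.03e-05). Between CiSCs and MEFs the log2 difference was 0.48 ± 0.21, which did not pass (edgeR adjusted p = 0.109). Reads carried no molecular identifiers, so counting intervals and limits cover counting error only.

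Cyp11a1, the side-chain cleavage enzyme that commits cholesterol to steroids, had 3 and 1 reads in CiSCs, 14539 and 14607 reads in MSCs and 4 and 4 reads in MEFs. The same libraries read as 0.143 and 0.0468 CPM, 773 and 794 CPM, and 0.202 and 0.208 CPM. MSCs were alone in expressing it beyond a few reads, and MEFs lay above CiSCs by a handful of reads. The level was 8289-fold lower in CiSCs than in MSCs (95% counting interval 3237 to 30424, edgeR adjusted p = 7.64e-06) and 3819-fold higher in MSCs than in MEFs (1938 to 8846, edgeR adjusted p = 8.56e-06). CiSCs and MEFs did not differ past the threshold (ratio 0.461, 95% counting interval 0.102 to 1.72, edgeR adjusted p = 0.281).

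The electron carriers of that reaction were, like Star, measured in all 6 libraries. They also serve other mitochondrial enzymes. Fdx1, encoding ferredoxin, was at 8.54 and 8.65 CPM in CiSCs, 193 and 186 CPM in MSCs, and 9.10 and 10.6 CPM in MEFs. Fdxr, encoding its reductase, was at 9.91 and 10.3 CPM in CiSCs, 163 and 188 CPM in MSCs, and 6.66 and 7.98 CPM in MEFs. CiSCs had the lowest values for Fdx1 and the middle ones for Fdxr. Neither gene was called between CiSCs and MEFs (edgeR adjusted p = 0.305 for Fdx1 and 0.0575 for Fdxr). Fdx1 was 22.1-fold lower in CiSCs than in MSCs (log2 -4.46 ± 0.15, edgeR adjusted p = 1.01e-05) and 19.3-fold higher in MSCs than in MEFs (log2 4.27 ± 0.15, edgeR adjusted p = 1.2e-05). Fdxr was 17.4-fold lower in CiSCs than in MSCs (log2 -4.12 ± 0.17, edgeR adjusted p = 1.38e-05) and 24.0-fold higher in MSCs than in MEFs (log2 4.59 ± 0.17, edgeR adjusted p = 1.45e-05). For comparison, Fdx2, a ferredoxin gene whose coding sequence is 49.9% identical to that of Fdx1, was not highest in MSCs. Per kilobase of transcript it was at 17.9 and 14.7 CPM in CiSCs, 11.5 and 14.0 CPM in MSCs, and 17.6 and 28.9 CPM in MEFs. With a replicate block, none of the other steroid-converting enzymes described below, Fdx2 among them, was called lower in MSCs than in MEFs.

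Among the enzymes that act later, Hsd3b1, which converts pregnenolone to progesterone, had 2 and 1.07 reads in CiSCs, 1951 and 2009 reads (104 and 109 CPM) in MSCs, and 0 reads in both MEFs libraries. It was at least 1384-fold higher in MSCs than in MEFs, taking 3 reads over the group as the limit that a count of 0 allows (0.0769 CPM in MEFs, edgeR adjusted p = 1.36e-05). Its 3.07 reads in CiSCs put it 1467-fold below MSCs (95% counting interval 513 to 7284, edgeR adjusted p = 1.16e-05). The coding sequence of Hsd3b1 is 89.3% to 90.0% identical to those of Hsd3b2, Hsd3b3 and Hsd3b6, and the counting program is not given in the sources used here, so reads could be split among them. Of the reads of these 4 genes in MSCs, 98.2% were assigned to Hsd3b1 and 1.34% to Hsd3b6, which in mice is known as the form of adult Leydig cells.

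Cyp17a1, the enzyme that takes progestins on to androgens, had 0 and 0 reads in CiSCs, 0 and 1 reads in MSCs and 0 and 1 reads in MEFs, and was not tested. The 2 libraries of MSCs therefore held 1 read for Cyp17a1 beside 29146 for Cyp11a1, and a count of 3 reads over the group would be 0.0806 CPM in MSCs. Transcripts of the steps as far as Hsd3b1 were thus abundant in MSCs, and that of the next step towards androgens was near 0.

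Akr1cl, a gene of the aldo-keto reductase family, had 1 and 2 reads in CiSCs, 9310.1 and 8477 reads (495 and 461 CPM) in MSCs, and 1 and 3 reads in MEFs. MSCs stood alone again, with CiSCs and MEFs overlapping at background. It was 6745-fold lower in CiSCs than in MSCs (95% counting interval 2308 to 32708, edgeR adjusted p = 7.64e-06) and 4661-fold higher in MSCs than in MEFs (1820 to 17108, edgeR adjusted p = 1.03e-05). Its coding sequence is 75.5% identical to that of Akr1c14 and 77.5% identical to that of Akr1c18.

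Hsd11b1, which regenerates active glucocorticoid from its inactive form, had 0 reads in both CiSCs libraries, 1166 and 1221 reads (62.0 and 66.3 CPM) in MSCs, and 4 reads in each MEFs library. It was at least 905-fold lower in CiSCs than in MSCs, with 0.0709 CPM as the limit in CiSCs (edgeR adjusted p = 1.16e-05), and 313-fold higher in MSCs than in MEFs (95% counting interval 158 to 725, edgeR adjusted p = 1.66e-05). H6pd, which supplies the NADPH for this reaction inside the endoplasmic reticulum, was at 144 and 141 CPM in CiSCs, 696 and 683 CPM in MSCs, and 66.7 and 73.2 CPM in MEFs. Both genes were thus highest in MSCs, but H6pd was high in CiSCs relative to MEFs while Hsd11b1 was at 0 there. H6pd was 4.83-fold lower in CiSCs than in MSCs (log2 -2.27 ± 0.13, edgeR adjusted p = 3.88e-05) and 2.04-fold higher in CiSCs than in MEFs (log2 1.03 ± 0.12, edgeR adjusted p = 0.00103).

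Insl3, the insulin-like hormone of Leydig cells that acts in testis descent, had 0 reads in both CiSCs libraries, 1134 and 1189 reads (60.3 and 64.6 CPM) in MSCs, and 2.48 and 0 reads in MEFs. It was at least 881-fold lower in CiSCs than in MSCs (edgeR adjusted p = 3.88e-05), and its few MEFs reads put it 982-fold higher in MSCs than in MEFs (95% counting interval 337 to 10059, edgeR adjusted p = 5.02e-05). Mrap, which carries the receptor of adrenocorticotropic hormone to the cell surface, had 1 and 0 reads in CiSCs, 3002 and 3315 reads (159.6 and 180.1 CPM) in MSCs, and 0 reads in both MEFs libraries. Both genes had their reads almost wholly in MSCs. Mrap was 7186-fold lower in CiSCs than in MSCs (95% counting interval 1289 to 283877, edgeR adjusted p = 1.8e-05) and at least 2207-fold higher in MSCs than in MEFs (edgeR adjusted p = 2.08e-05).

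Levels were compared between genes in MSCs only after division by transcript length, as CPM per kilobase of the longest protein-coding transcript with a RefSeq match in GENCODE. On this scale Cyp11a1 was highest at 369 ± 6.84 CPM per kilobase (SD, n = 2), followed by Akr1cl at 271 ± 13.8 and Mrap at 169.7 ± 14.5 CPM per kilobase. Star at 105 ± 0.461, Insl3 at 100.2 ± 4.91 and Fdxr at 90.3 ± 9.11 CPM per kilobase came next, and these neighbours lay within about 1 SD of each other. Fdx1 had 68.7 ± 1.85, Hsd3b1 57.4 ± 2.08 and Hsd11b1 39.5 ± 1.89 CPM per kilobase, each apart from its neighbours by more than the spread. Cyp17a1 came last at 0.0150 ± 0.0212 CPM per kilobase. Insl3 has the shortest transcript of the set, at 623 bases, and Star the longest, at 4046 bases, so that the 2 genes lay close per kilobase although Star was far above Insl3 in plain CPM. Another choice of transcript would move these values.

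**Figure D2:**
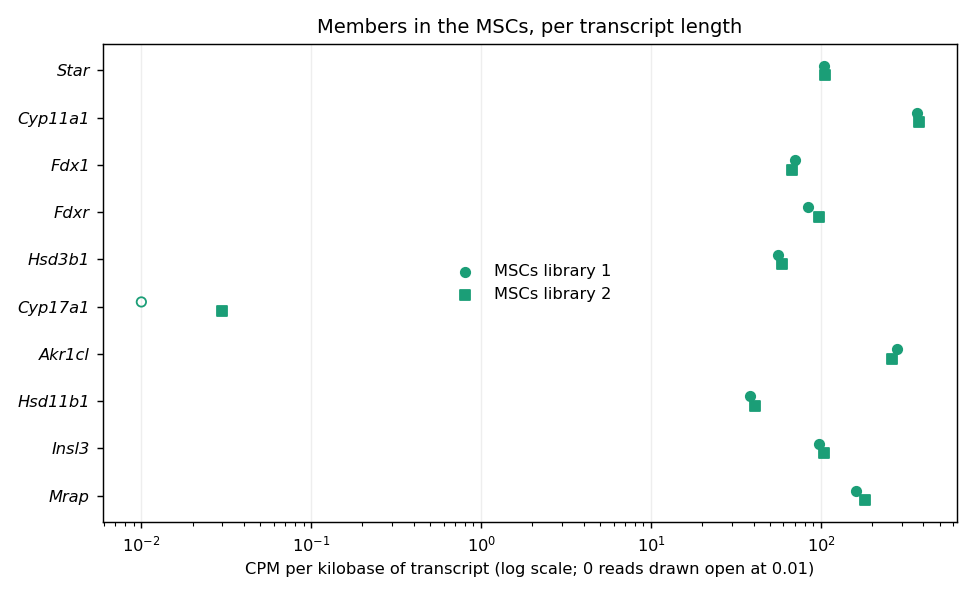
CPM per kilobase of transcript (log scale) for each gene in the 2 MSCs libraries, with circles for library 1 and squares for library 2. The genes other than Cyp17a1 lie between 38.2 and 374 CPM per kilobase, whereas Cyp17a1 is at 0, drawn open at 0.01, and 0.0299.

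In CiSCs against MEFs, the comparison of the induced cells with the fibroblasts they were made from, 40.9% of all tested genes were called, 19.6% as higher and 21.3% as lower. Of the set, 1 gene was called, and it was lower: Hsd11b1 had 0 reads in CiSCs against 8 in MEFs over 2 libraries each, at least 2.89-fold lower (edgeR adjusted p = 0.00664). The call rested on 8 reads, and when the fit held only these 2 groups, Hsd11b1 was too low to be tested and 0 of 3 genes were called. At an unadjusted p under 0.05 the edgeR count was 3 of 9, and DESeq2 called 1. Fdxr was 1.38-fold higher in CiSCs (log2 0.47 ± 0.16) with an edgeR adjusted p of 0.0575, which became 0.0213 without MEFs library 2 and 0.0261 with library totals in place of scaled sizes. Fdx1 had a log2 difference of -0.20 ± 0.14 (edgeR adjusted p = 0.305). Cyp11a1, Hsd3b1, Akr1cl, Insl3 and Mrap had at most 8 reads in either group and were not called.

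The hormone receptors around the pathway were split between the cell groups. Lhcgr had 0 reads in CiSCs, 1 and 2 reads in MSCs and 0 reads in MEFs. Mc2r, the receptor of adrenocorticotropic hormone that needs MRAP, had 274 and 287 reads (13.1 and 13.4 CPM) in CiSCs, 8 and 2 reads in MSCs, and 0 and 2 reads in MEFs. The receptor was thus high in CiSCs, where Mrap had 1 read, and near 0 in MSCs, where Mrap was at 169.8 ± 14.5 CPM. Mc2r was 49.3-fold higher in CiSCs than in MSCs (95% counting interval 26.6 to 103, edgeR adjusted p = 0.000328) and 258-fold higher in CiSCs than in MEFs (71.2 to 2139, edgeR adjusted p = 0.000245). Mrap2, which belongs to the same small family (40.6% identity in coding sequence to Mrap), had its highest level in the same group, at 7.02 and 5.77 CPM in CiSCs, 0.321 and 0.272 CPM in MSCs, and 0.118 and 0.157 CPM in MEFs. It was 21.6-fold higher in CiSCs than in MSCs (log2 4.40 ± 0.35, edgeR adjusted p = 0.00014) and 46.4-fold higher in CiSCs than in MEFs (log2 5.57 ± 0.39, edgeR adjusted p = 0.000106). Prlr, the prolactin receptor, was at 0.398 and 0.235 CPM in CiSCs, 46.9 and 38.3 CPM in MSCs, and 0.620 and 0.272 CPM in MEFs.

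**Figure D3:**
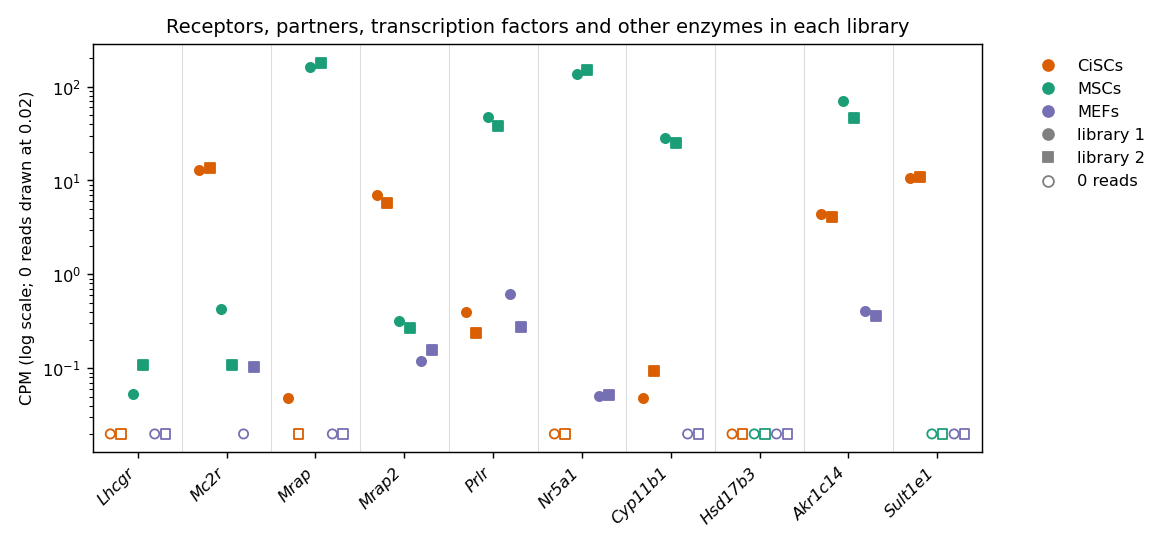
CPM (log scale) in each library for receptors, receptor partners, transcription factors and other enzymes of steroid cells, with CiSCs in orange, MSCs in green and MEFs in purple, circles for library 1 and squares for library 2, and open symbols at 0.02 for 0 reads. Mc2r, Mrap2 and Sult1e1 are highest in CiSCs, at 5.77 to 13.4 CPM, whereas Mrap, Prlr, Nr5a1, Cyp11b1 and Akr1c14 are highest in MSCs.

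Nr5a1, the nuclear receptor that switches on steroid enzyme genes, had 0 reads in CiSCs, 2573 and 2762 reads (137 and 150.0 CPM) in MSCs, and 1 read in each MEFs library. It was at least 2023-fold lower in CiSCs than in MSCs (edgeR adjusted p = 9.96e-06). Gata4, a transcription factor of both Sertoli and Leydig cells, was at 0.0945 ± 0.00131 CPM in CiSCs, 252 ± 17.7 CPM in MSCs and 0.154 ± 0.00297 CPM in MEFs (SD, n = 2). Its relative Gata6 was at 39.3 ± 0.543 CPM in CiSCs, 10.6 ± 2.37 CPM in MSCs and 1.43 ± 0.117 CPM in MEFs, so that the order of the groups was not that of Gata4. Gata6 was 3.71-fold higher in CiSCs than in MSCs (edgeR adjusted p = 0.000398) and 27.3-fold higher in CiSCs than in MEFs (edgeR adjusted p = 2.65e-05). Nr0b2 had 0 reads in CiSCs, 34 and 30 reads in MSCs and 0 and 1 reads in MEFs, and Nr0b1, which restrains NR5A1, had 7 and 5 reads in MSCs and 0 in the other groups. Nr4a1, an early response gene, was highest in MEFs, at 30.0 ± 1.78 CPM in CiSCs, 91.5 ± 10.7 CPM in MSCs and 247 ± 3.02 CPM in MEFs (SD, n = 2).

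Of 22 receptors, signalling genes and transcription factors of steroid cells, 19 were tested. In CiSCs against MSCs 4 were higher and 10 lower, in MSCs against MEFs 10 were higher and 2 lower, and in CiSCs against MEFs 6 were higher and 5 lower. The median log2 fold changes were -0.88, 1.10 and 0.22, beside -0.03, 0.01 and 0.00 over all tested genes, of which 42.8%, 42.5% and 40.9% were called. The median in CiSCs against MEFs was -0.22 without CiSCs library 2 (4 higher and 3 lower), -0.05 without MEFs library 2 and 0.40 without MEFs library 1. With no filter on low counts the medians in CiSCs against MSCs and in CiSCs against MEFs were -1.67 and 0.00.

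Among 23 other steroid-converting enzymes, 14 were tested. In CiSCs against MSCs 1 was higher and 7 lower, in MSCs against MEFs 7 were higher and 1 lower, and in CiSCs against MEFs 5 were higher and 3 lower. The shares called over all tested genes were 42.8%, 42.5% and 40.9%. The median log2 fold changes over the genes tested were -1.49, 0.72 and 0.43, or -1.49, 0.76 and 0.21 with genes at 0 reads in a group set to their limits and those with no fold left out. These values depended on single libraries. In CiSCs against MSCs the median was -0.95 without MSCs library 1, -0.92 without MSCs library 2 and -0.99 without MEFs library 1, and -0.56 when at least 5 CPM was asked for. In MSCs against MEFs it was 0.36 without MEFs library 1, where 3 were lower, and 0.38 without MSCs library 2, and none was lower when any of the other 5 libraries was left out. In CiSCs against MEFs 3 were higher without either CiSCs library and 5 were lower without MEFs library 1, and the median was 0.66 without CiSCs library 1, 0.11 without CiSCs library 2 and 0.70 with no filter. Cyp11b1, which in the adrenal cortex makes corticosterone, had 1 and 2 reads in CiSCs, 531 and 464 reads (28.2 and 25.2 CPM) in MSCs, and 0 reads in MEFs, and was at least 348-fold higher in MSCs than in MEFs (edgeR adjusted p = 3.89e-05). Its neighbour in function Cyp11b2, whose coding sequence is 87.1% identical, had 2.08 and 0 reads in MSCs and none in the other groups. Cyp21a1, which stands between progesterone and corticosterone in the adrenal pathway, had 0 and 1 reads in CiSCs, 3 and 4 reads in MSCs and 0 reads in MEFs.

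Enzymes of the last steps to androgens and oestrogens differed in level. Hsd17b3, which makes testosterone, had 0 reads in all 6 libraries. Cyp19a1, the aromatase, had at most 1.09 reads in any library. Srd5a2 had 0 reads in CiSCs, 10 and 5 reads in MSCs and 0 reads in MEFs. Srd5a1, the other steroid reductase of this kind, was at 5.01 and 4.82 CPM in CiSCs, 4.84 and 4.62 CPM in MSCs, and 3.19 and 3.07 CPM in MEFs, so that MSCs stood much closer to CiSCs than for the set. Its edgeR adjusted p in CiSCs against MEFs was 0.0467 and was above 0.05 under 9 of the alternatives, among them DESeq2 (0.131).

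Some of these enzymes differed in CiSCs. Akr1c14, an aldo-keto reductase that reduces steroids, was at 4.39 and 4.12 CPM in CiSCs, 69.4 and 46.2 CPM in MSCs, and 0.405 and 0.364 CPM in MEFs. The groups did not overlap, with CiSCs between the others. It was 13.6-fold lower in CiSCs than in MSCs (log2 -3.76 ± 0.24, edgeR adjusted p = 6.19e-05) and 11.1-fold higher in CiSCs than in MEFs (log2 3.45 ± 0.34, edgeR adjusted p = 0.000418). Sult1e1, an oestrogen sulfotransferase, had 223 and 231 reads (10.6 and 10.8 CPM) in CiSCs and 0 reads in both MSCs and both MEFs libraries. It was at least 133-fold higher in CiSCs than in MSCs (edgeR adjusted p = 0.000277) and at least 139-fold higher in CiSCs than in MEFs (edgeR adjusted p = 0.000332). Por, the reductase that feeds electrons to microsomal cytochromes P450, was at 250.5 ± 13.4 CPM in CiSCs, 235 ± 41.2 CPM in MSCs and 139 ± 22.8 CPM in MEFs (SD, n = 2), and Cyb5a, a cytochrome that assists CYP17A1, was at 44.8 ± 1.72, 121 ± 1.00 and 114 ± 39.1 CPM in CiSCs, MSCs and MEFs.

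The supply of cholesterol was described by 16 genes of uptake, storage and transport, all tested. In CiSCs against MSCs 2 were higher and 11 lower (median log2 fold change -1.03), in MSCs against MEFs 6 were higher and 2 lower (0.39), and in CiSCs against MEFs none was higher and 8 were lower (-0.56). Of all tested genes 42.8%, 42.5% and 40.9% were called in these comparisons. Leaving out any 1 of the CiSCs or MSCs libraries gave 0 higher and 7 or 8 lower in CiSCs against MSCs. In MSCs against MEFs 5 were lower without MEFs library 1, and the median was 0.22 without MEFs library 1 and 0.24 without MEFs library 2. In CiSCs against MEFs 5 were lower without either CiSCs library. Abca1, which exports cholesterol, was at 58.6 and 71.7 CPM in CiSCs, 1240 and 1100 CPM in MSCs, and 322 and 267 CPM in MEFs. CiSCs were lowest and MSCs highest, with no overlap. Abca1 was 17.9-fold lower in CiSCs than in MSCs (log2 -4.17 ± 0.19, edgeR adjusted p = 1.98e-05) and 4.52-fold lower in CiSCs than in MEFs (log2 -2.17 ± 0.18, edgeR adjusted p = 0.000195). Scarb1, the receptor that takes up cholesterol from high-density lipoprotein, was at 23.8 and 27.3 CPM in CiSCs, 93.1 and 103 CPM in MSCs, and 37.6 and 32.1 CPM in MEFs. It was 2.81-fold higher in MSCs than in MEFs (log2 1.49 ± 0.15, edgeR adjusted p = 0.000507), beside 199.5-fold for Star. Soat1, which esterifies cholesterol for storage, was 2.54-fold higher in MSCs than in MEFs (log2 1.35 ± 0.17, edgeR adjusted p = 0.00106). Nceh1, a hydrolase of stored cholesterol esters, was at 9.03 ± 0.793 CPM in CiSCs, 84.2 ± 0.522 CPM in MSCs and 84.7 ± 2.79 CPM in MEFs (SD, n = 2). It was 9.33-fold lower in CiSCs than in MSCs (edgeR adjusted p = 1.84e-05) and 9.39-fold lower in CiSCs than in MEFs (edgeR adjusted p = 2.09e-05), while MSCs and MEFs differed by -0.01 ± 0.13 on the log2 scale.

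Of 21 genes of cholesterol synthesis, all tested, none was higher and 15 were lower in CiSCs against MSCs (median log2 fold change -1.12), 14 were higher and none lower in MSCs against MEFs (0.97), and 1 was higher and 2 were lower in CiSCs against MEFs (0.10). The shares called over all tested genes were again 42.8%, 42.5% and 40.9%. Msmo1, a sterol oxidase of the later steps, was at 57.3 and 53.5 CPM in CiSCs, 175 and 189 CPM in MSCs, and 62.1 and 41.3 CPM in MEFs. Sc5d, another late enzyme, was at 42.5 and 39.9 CPM in CiSCs, 192 and 185 CPM in MSCs, and 76.9 and 51.0 CPM in MEFs. MSCs were highest for both, by 3.50-fold over MEFs for Msmo1 and 2.95-fold for Sc5d. Hmgcs1, at the entry of the pathway, was 2.14-fold higher in CiSCs than in MEFs (log2 1.10 ± 0.24, edgeR adjusted p = 0.0113), a call lost without CiSCs library 1 (edgeR adjusted p = 0.0655) or without CiSCs library 2 (0.0687). Sc5d was lower in CiSCs than in MEFs (log2 -0.64 ± 0.20, edgeR adjusted p = 0.0466), a call lost under 9 of the alternatives, among them the replicate block (0.0513) and the loss of any 1 of the CiSCs or MSCs libraries (0.105 to 0.199). The counts depended on single libraries: the 15 became 8 or 9 without any 1 of the CiSCs or MSCs libraries, the 14 became 9 without MSCs library 2, and without MEFs library 1 there were 3 lower in MSCs against MEFs and 9 higher and 5 lower in CiSCs against MEFs. Without MEFs library 2 there were 4 lower in CiSCs against MEFs, and without either CiSCs library 0 higher and 1 lower.

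**Figure D4:**
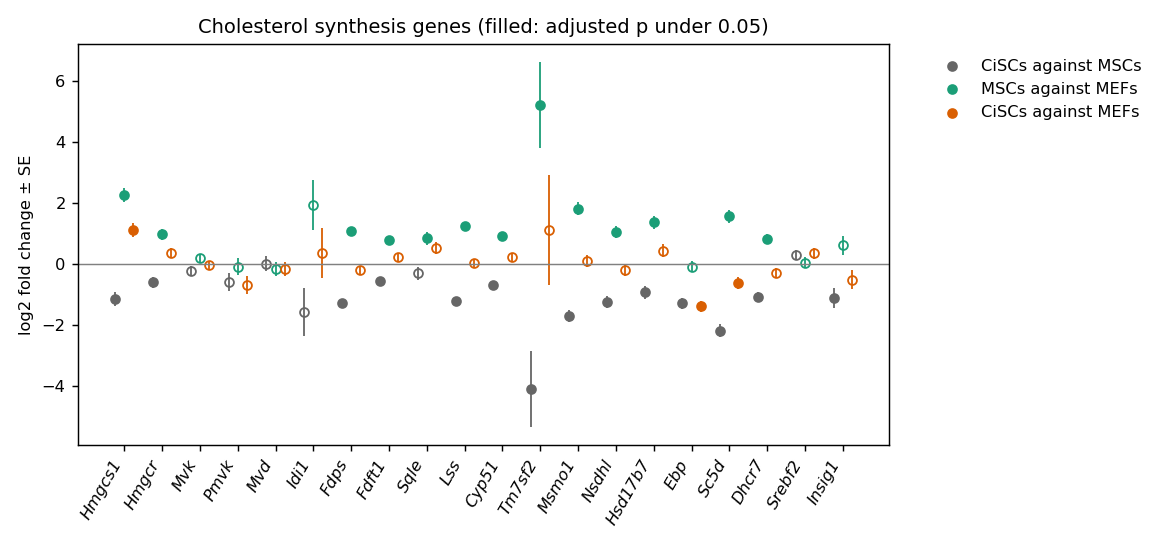
Log2 fold change ± SE (edgeR) of 20 of the 21 cholesterol synthesis genes, in grey for CiSCs against MSCs, in green for MSCs against MEFs and in orange for CiSCs against MEFs, filled where the adjusted p was under 0.05. Grey points lie below 0 and green points above 0 for most genes, and in orange 3 points are filled.

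Markers of other cell types were measured beside these genes, since the set is best known from Leydig cells. Of 10 further Leydig cell markers, 8 were tested, and in MSCs against MEFs 4 were higher (Nr5a1, Hsd3b6, Prlr and Inha) and 3 lower (Hpgds, Vcam1 and Thbs2). With 3 of its genes lower in MSCs than in MEFs, the list as a whole did not set MSCs apart from MEFs. Whether the reads of the 4 higher genes came from Leydig or Sertoli cells was not tested. Hsd3b6 had 28.7 and 25.3 reads in MSCs. Hsd17b3 and Sult1e1 were at 0 in MSCs, and Lhcgr had 3 reads. The summed level of these 10 was 1068 and 1172 CPM in CiSCs, 1080 and 1207 CPM in MSCs, and 2272 and 1644 CPM in MEFs. Most of that sum was Thbs2, at 765 and 859 CPM in CiSCs, 676 and 710 CPM in MSCs, and 1984 and 1401 CPM in MEFs. The median log2 fold change of the 8 was -3.80 in CiSCs against MSCs, with 2 higher and 5 lower, and 2.53 in MSCs against MEFs. Of all tested genes 42.8% and 42.5% were called in these 2 comparisons. The median in MSCs against MEFs depended on the handling of low counts. It was 5.06 over 7 genes with those at 0 reads in a group set to their limits and those with no fold left out. With at least 5 CPM in at least 2 libraries it was 0.00. The 6 adrenal cortex markers summed to 13.1 and 13.6 CPM in CiSCs, where Mc2r made up nearly all, to 32.1 and 28.0 CPM in MSCs, where Cyp11b1 did, and to 0.0344 and 0.104 CPM in MEFs.

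The 8 macrophage markers summed to 13.2 and 18.4 CPM in CiSCs, 563 and 551 CPM in MSCs, and 4259 and 5871 CPM in MEFs, and all 8 were called lower in CiSCs against MSCs, in MSCs against MEFs and in CiSCs against MEFs. The 6 endothelial markers summed to 21.8 and 24.2 CPM in CiSCs, 93.8 and 96.8 CPM in MSCs, and 15.6 and 14.9 CPM in MEFs, with 2 higher and 3 lower in CiSCs against MSCs and 5 higher and none lower in MSCs against MEFs. Cdh5, which defines endothelium, was at 0.0472 ± 0.000653 CPM in CiSCs, 56.9 ± 1.40 CPM in MSCs and 0.614 ± 0.133 CPM in MEFs (SD, n = 2). Emcn and Egfl7 were the 2 called higher in CiSCs than in MSCs. The 5 peritubular myoid and smooth muscle markers summed to 1682 and 1515 CPM in CiSCs, 3864 and 3683 CPM in MSCs, and 3561 and 3199 CPM in MEFs. The 6 germ cell markers summed to 2.56 and 2.11 CPM in CiSCs, 32.8 and 25.9 CPM in MSCs, and 3.97 and 3.86 CPM in MEFs. Most of that sum was Zbtb16 in each group, and Tnp1 was at 0 in all groups. The 5 fibroblast markers summed to 19491 and 19115 CPM in CiSCs, 28135 and 30392 CPM in MSCs, and 11184 and 13053 CPM in MEFs, most of it from Col1a1 and Col3a1. Of these 5, 2 were higher and 1 lower in each of the 3 comparisons. The counts of calls in these lists stand beside shares over all tested genes of 42.8% in CiSCs against MSCs, 42.5% in MSCs against MEFs and 40.9% in CiSCs against MEFs. Thy1 was at 145 and 132 CPM in CiSCs, 4.15 and 4.29 CPM in MSCs, and 867 and 687 CPM in MEFs. MSCs thus carried RNA of marker genes of several testis cell types besides Sertoli cells, and the part of such cells in the levels of the set was not tested.

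The 2 MSCs libraries were also set against each other. The ratio of MSCs library 1 to MSCs library 2 ranged from 0.867 for Fdxr to 1.07 for Akr1cl over the 9 expressed genes, with a median of 0.950. Over 11 Sertoli cell markers with enough reads it ranged from 0.644 to 1.13 with a median of 0.781. Over 8 macrophage markers the ratio had a median of 1.02, over 5 peritubular myoid and smooth muscle markers 1.01 and over 4 fibroblast markers 0.982. Over 2 endothelial markers the median was 0.950. Over 5 of the further Leydig cell markers it was 0.944, with values from 0.649 to 1.23. These are differences between single libraries, with no replicate check.

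**Figure D5:**
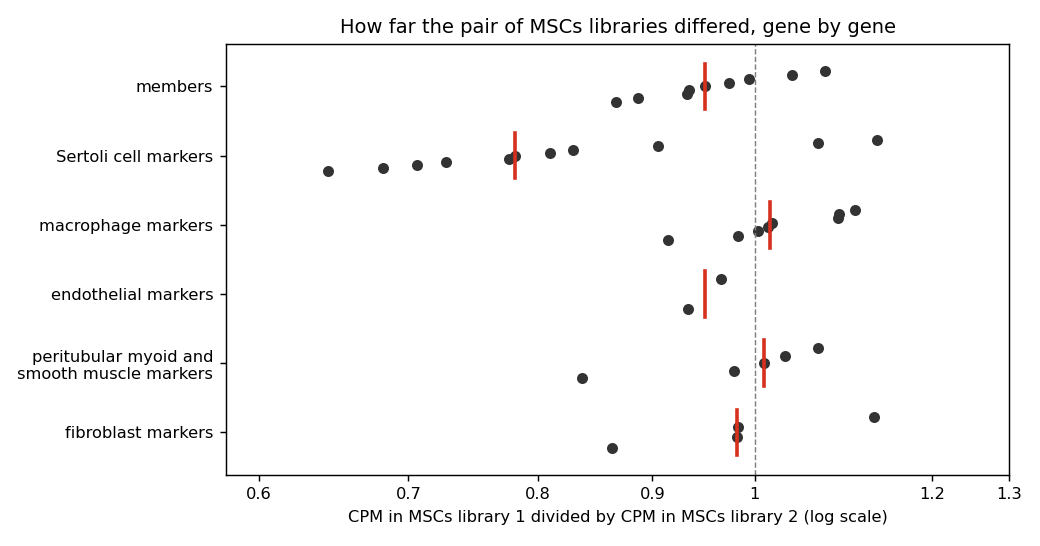
CPM in MSCs library 1 divided by CPM in MSCs library 2 (log scale), 1 point per gene with enough reads, for the 9 expressed genes of the set and for markers of 5 cell types, with a red bar at each median and a dashed line at 1. The set has its median at 0.950 and the Sertoli cell markers at 0.781.

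The genes whose pattern over the 6 libraries came closest were found for Star, Cyp11a1 and Insl3 among the 9726 genes that averaged 10 CPM or more in MSCs, by the root mean square difference of centred log2 CPM (prior count 2). For Star these were Sbsn (0.088 log2 units), Cstdc1 and Art3 (both 0.180), Aqp2 (0.236) and Defb36 (0.267). Sbsn followed Star level by level, at 3.39 and 2.29 CPM in CiSCs, 418 and 474 CPM in MSCs, and 2.23 and 2.29 CPM in MEFs, while the other 4 had at most 1 read outside MSCs, where the prior count limits how far a gene can seem to fall. For Cyp11a1 they were Aldh1a2 (0.345), Tcf21 (0.521), Aldh1a1 (0.612), Nr5a1 (0.735) and Gata4 (0.758). Aldh1a1, a retinaldehyde dehydrogenase, was at 0.716 and 0.982 CPM in CiSCs, 1725 and 1545 CPM in MSCs, and 1.01 and 0.884 CPM in MEFs. For Insl3 they were Clic5 (0.291), Ly6k (0.339), Col22a1 (0.343), Map3k21 (0.374) and Slc30a2 (0.382). The same limit holds for Cyp11a1, Nr5a1, Gata4 and Insl3, which had at most 4 reads in any library outside MSCs. It also holds for Aldh1a2, at most 0.260 CPM outside MSCs, and Tcf21, at most 0.0506 CPM. Among the genes closest to Insl3 it holds for Ly6k, Col22a1, Map3k21 and Slc30a2, at most 0.0520 CPM outside MSCs.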

How the data were processed

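Total RNA of 6 libraries (2 CiSCs, 2 MSCs, 2 MEFs) had been sequenced on the BGISEQ-500 platform, per the labels. The authors deposited 1 table of expected counts (estimates of reads per gene, with fractions allowed) per library, under Entrez gene identifiers, and 42.0% to 43.8% of the values of a library were not whole. HISAT and the mouse build mm9 are named in the submitters' processing notes, and the counting program, annotation, strand and filters are not given in the sources used here. Of 20007 identifiers, 18891 matched a symbol in a RefSeq table of GRCm38.p6, and no coordinates of the files were used.

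Expected counts were rounded to whole numbers and fitted in R 4.3.3 with edgeR 4.0.16: filterByExpr (15272 genes kept), TMM scaling (factors 0.922 to 1.09), and quasi-likelihood F tests, two-sided, with 1 mean per group over all 6 libraries and 3 residual degrees of freedom. Benjamini-Hochberg adjusted p-values cover all tested genes, with 0.05 as the threshold. Standard errors are the log2 fold change over the root of F. CPM uses TMM-scaled library sizes. Folds are ratios of the reads of a group over its summed scaled library sizes, with exact binomial 95% counting intervals, and a group at 0 reads was given the limit of 3 reads over the group. Coding identity was computed with Biopython 1.88 from GENCODE transcripts. The procedure was tested on simulated data.

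The genes, lists and tests were chosen with earlier results of these data known. Named were the 10 genes, a fixed set of pathway genes, and from each pathway list up to 4 genes with the smallest adjusted p in MSCs against MEFs, up to 3 in CiSCs against MEFs and any with no reads in a group. Inha, Vcam1, Hpgds, Thbs2, Fdx2, Tnp1 and single cell type markers were named after their values were seen, and 2 genes that the rule names are not reported here. The alternatives were a replicate block, each library left out in turn, an adjusted p under 0.01, a fit of only the 2 groups compared, no filter, at least 5 CPM in at least 2 libraries, median-ratio size factors, library totals only, DESeq2 1.42.0 with its Wald test, and counts not rounded.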

Additional observations from a re-analysis of the deposited data

How the results depend on the processing

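The 9 tested genes of the set were called lower in CiSCs against MSCs and higher in MSCs against MEFs under every alternative run, which carries no weight for the 6 that passed the filter only through their MSCs reads. In CiSCs against MEFs the count of 1 became 0 with only the 2 groups compared (3 genes tested, 0 at an unadjusted p under 0.05). It became 2 with library totals only, and DESeq2, fitted on all 6 libraries, called 1 of 9. The log2 difference of Fdxr was 0.60 without MEFs library 2, against 0.47 in the fit reported. Over all tested genes an adjusted p under 0.01 left 4324 calls in CiSCs against MSCs, 4009 in MSCs against MEFs and 3774 in CiSCs against MEFs, in place of 6534, 6497 and 6250. Leaving out a library gave 3910 to 9369, 3516 to 9745 and 3395 to 9487 calls. Library totals only moved the median log2 fold change of all genes to 0.211, -0.102 and 0.114 (against -0.025, 0.010 and -0.002) and the share of calls that were higher to 56.9%, 44.4% and 57.0% (against 41.3%, 52.9% and 48.0%). Same-numbered libraries shared only a number: their deviations correlated at -0.129 (CiSCs and MSCs), 0.138 (MSCs and MEFs) and -0.215 (CiSCs and MEFs). With the replicate block 5814, 5672 and 5468 genes were called, and 9, 9 and 1 of the set.

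Log2 fold changes that turned sign were not called in the fit reported, and the cause was not tested. In MSCs against MEFs Nceh1 turned to 0.01 with at least 5 CPM, and library totals gave -0.04 for Hsd3b7 and -0.02 for Cyb5a. In CiSCs against MEFs library totals gave 0.09 for Soat1, 0.01 for Stard5 and 0.00 for Akr1b7, which was 0.33 with counts not rounded. When a library was left out, the lowest and highest values were -0.07 and 0.28 for Por in CiSCs against MSCs. In MSCs against MEFs they were -0.34 and 0.15 for Ebp, -0.22 and 0.38 for Hsd3b7 and -0.25 and 0.49 for Cyb5a, of which -0.34 (edgeR adjusted p = 0.0411) and both Cyb5a values (0.0483 and 0.00624) passed the threshold. In CiSCs against MEFs they were -1.10 and 0.44 for Akr1cl, -0.21 and 0.13 for Soat1, -0.28 and 0.04 for Stard5, -0.07 and 0.07 for Lss, -0.17 and 0.40 for Msmo1 (0.40 passed, at an edgeR adjusted p of 0.0161), -2.33 and 2.24 for Akr1b7, -0.97 and 0.21 for Prlr and -0.15 and 3.09 for Hsd3b6. A lone library of a group was assumed to vary like the other groups. Depth limits the genes with few reads: for Cyp11a1 the ratio of CiSCs to MEFs, 0.461, had a 95% counting interval of 0.102 to 1.72.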
